A study of Mus musculus with 4 samples.

Results

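The 10 genes described here encode signals and receptors of the VEGF, angiopoietin and endothelin systems, and they are among 18298 genes listed in at least 1 of 4 RNA-seq samples of mouse rib chondrocytes. They comprise 4 VEGF family ligands (Vegfa, Vegfb, Vegfc and Pgf), the VEGF receptor Flt1, the neuropilin co-receptors Nrp1 and Nrp2, the angiopoietin ligand Angpt1, the endothelin ligand Edn1 and the endothelin receptor Ednra. The genes were matched by symbol and all 10 were found. They were chosen from their measured expression in these same samples, with the genotype difference already known, so their differences between genotypes are described without a test. Secreted VEGF ligands bind receptor tyrosine kinases on vessel cells, with neuropilins as co-receptors, and hypertrophic cartilage is known to release Vegfa when vessels invade the growth plate. Angiopoietins act through the TIE receptors, which stabilise vessels. Endothelins are peptides released from precursors by converting enzymes, they act on G-protein-coupled receptors, and they are best known for constricting vessels.

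The study compared gene expression in cultured rib chondrocytes with and without a Cre driver that removes floxed Senp6, which encodes a protease that takes SUMO chains off proteins. WT chondrocytes came from Senp6f/f mice and Mut chondrocytes from Dermo1-Cre;Senp6f/f mice, with 2 samples in each group. All 4 samples were primary cells at passage P1 from E18.5 embryos, on a C57BL/6 background, and both groups carried the floxed alleles. The WT cells carried no Cre, so the presence of the driver cannot be told apart from the loss of Senp6. Dermo1-Cre is active in mesenchymal progenitors, so any cell in the culture that did not descend from them kept Senp6. The study's methods describe in vitro replicates as biological, but the labels do not say whether the 2 samples of a group came from separate animals, pools or cultures, so any p-value below measures only the spread between these samples.

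Each sample held between 21.0 M and 31.0 M counted reads (M, mega). Senp6 stood at 10.8 and 18.0 RPKM (reads scaled to transcript length and to the mapped reads of the sample) in WT and at 12.0 and 8.07 RPKM in Mut, so the groups overlapped on the targeted gene, whose counts include exons outside the deleted part. WT replicate 1 stood apart: by Euclidean distance of log2 RPKM over 11737 genes, WT replicate 2 lay nearer to Mut replicate 1 (33.0) than to WT replicate 1 (39.5). Mut replicate 2 alone had many reads from the female transcript Xist (11354 reads, against 2 to 5 in the others), so it alone gave a sign of female cells. Whether it held cells of a single sex was not tested. All 10 chondrocyte markers were found, and all 10 were lower in both Mut samples than in both WT samples. Their summed level was 952 and 961 RPKM in WT and 501 and 624 RPKM in Mut, led by Col2a1 and Col11a1. In bulk RNA, fewer cells of a type and less RNA per cell cannot be told apart.

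The sequences just before the start sites of 4 of the genes are shown: Edn1, which had the largest fold change, Flt1, the VEGF receptor among the 10 genes, and Vegfa and Vegfb, which differed in opposite directions within 1 ligand family. The windows are from RefSeq, in build GRCm38.p6, and each holds the 250 bases before the annotated start, written 5′ to 3′ on the strand of the gene. They lie at chr13:42301226-42301475 on the plus strand for Edn1, and on the minus strand at chr5:147726012-147726261 for Flt1, chr17:46032378-46032627 for Vegfa and chr19:6987652-6987901 for Vegfb. Vegfa has a further RefSeq window, not shown because most of it lies in annotated exons, and that window held 2 hypoxia response element cores, 218 and 211 bases before its start. None of the 4 windows shown overlapped an exon of any gene in the GENCODE M21 annotation. Capitals mark matches, on either strand, to the core of the hypoxia response element (ACGTG or GCGTG), the AP-1 site (TGANTCA), the cyclic AMP response element (TGACGTCA), the GC box (GGGCGG) and the TATA box (TATAAA).
Edn1: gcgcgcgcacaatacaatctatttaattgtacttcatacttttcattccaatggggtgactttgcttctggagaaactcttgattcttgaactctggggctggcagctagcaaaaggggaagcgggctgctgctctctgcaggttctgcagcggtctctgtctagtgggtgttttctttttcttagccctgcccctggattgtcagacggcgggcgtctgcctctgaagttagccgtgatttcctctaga
Flt1: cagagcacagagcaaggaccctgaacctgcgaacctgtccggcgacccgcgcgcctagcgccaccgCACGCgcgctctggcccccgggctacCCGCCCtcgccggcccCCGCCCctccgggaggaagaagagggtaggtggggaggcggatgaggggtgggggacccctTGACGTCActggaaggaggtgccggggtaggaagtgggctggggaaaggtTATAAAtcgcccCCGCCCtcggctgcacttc
Vegfa: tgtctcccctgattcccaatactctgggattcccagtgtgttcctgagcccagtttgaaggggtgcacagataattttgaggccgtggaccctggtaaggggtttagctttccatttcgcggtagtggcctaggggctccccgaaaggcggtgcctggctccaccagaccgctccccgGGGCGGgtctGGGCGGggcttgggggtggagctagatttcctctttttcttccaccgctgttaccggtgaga
Vegfb: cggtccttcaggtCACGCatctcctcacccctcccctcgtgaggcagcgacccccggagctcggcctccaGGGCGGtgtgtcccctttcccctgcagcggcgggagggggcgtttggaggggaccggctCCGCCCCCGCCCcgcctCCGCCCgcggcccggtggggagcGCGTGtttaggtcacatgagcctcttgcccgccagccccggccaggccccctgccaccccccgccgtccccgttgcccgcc

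RefSeq windows were found for 9 of the 10 genes, 11 windows in all, out of 32851 in the table. The Flt1 window was the only 1 of the 11 with a cyclic AMP response element, 81 bases before the start, and the only 1 with a TATA box, 31 bases before the start. Over all windows, these letters occurred in 1.55% and 12.4%, respectively. The hypoxia response element core was in 6 of the 11 windows, against 38.6% of all windows, and the GC box in 8 of 11, against 32.7%. No AP-1 site was in any of the 11 windows, against 6.75% of all windows. The Edn1 window held none of the 5 motifs and had the lowest GC content of the 11, at 50.4%, while the Vegfb window had the highest, at 76.4%. The median of all windows was 52.4%, and each of the 11 except the Edn1 window lay above it. The shares of windows with a motif were not adjusted for GC content. A match describes the letters only, and Vegfa and Pgf each have 2 of the 11 windows. Both Pgf windows lay wholly in annotated exons, and the Vegfa window not shown lay in them over 218 of its 250 bases. The Nrp2 and Ednra windows overlapped exons by 32 and 12 bases.

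Across the 10 genes, 5 were higher in both Mut samples than in both WT samples (Vegfa, Pgf, Flt1, Nrp1 and Edn1), 3 were lower (Vegfb, Nrp2 and Angpt1), and the groups of Vegfc and Ednra overlapped. Among the 14123 genes tested, 28.3% were higher without overlap and 19.2% were lower without overlap. Because the genes were selected on this same contrast, nothing is read from their counts against these shares. The median log2 fold change of Mut over WT was 0.21 for the 10 genes and 0.01 for all genes tested. Groups without overlap keep their direction whichever sample is left out, so only Vegfc and Ednra could change sign in that way. Both did when WT replicate 1 was left out. The values by sample are plotted on a log scale, with each pair of replicates beside its group mean.

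**Figure D1:**
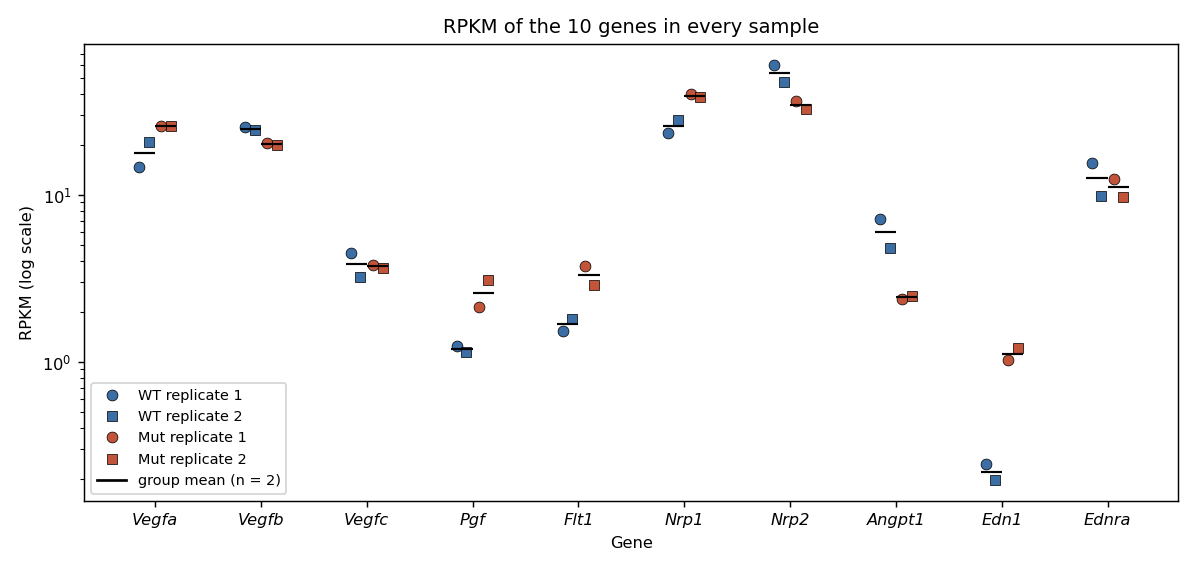
RPKM on a log scale (y axis) for each of the 10 genes (x axis) in the 2 WT samples (blue) and 2 Mut samples (red), with circles for replicate 1, squares for replicate 2 and lines for group means. Edn1 is the lowest gene in every sample, and the WT and Mut points are separated for all genes except Vegfc and Ednra.

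Gene positions below are in GRCm38. Among the VEGF ligands, Vegfa, the main driver of vessel growth (chr17:46016993-46032369, minus strand), was higher in Mut. Its level was 14.6 and 20.8 RPKM in WT and 25.8 and 25.7 RPKM in Mut. The Mut samples were nearly equal, whereas the WT samples differed from each other by more than the higher of them differed from Mut. Fitted by edgeR, Mut over WT came to a log2 fold change of 0.50 (SE 0.173), with a 95% interval from 0.08 to 0.91, and the smallest value with 1 sample left out was 0.29, without WT replicate 1.

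Pgf, a VEGF relative that binds Flt1 but not Kdr, stood at 1.25 and 1.15 RPKM in WT and at 2.12 and 3.08 RPKM in Mut. These values rest on 42 and 48 reads in WT and on 105 and 139 reads in Mut. The groups did not overlap, and the Mut samples lay further apart than the WT samples. The fitted log2 fold change was 1.07 (SE 0.310), or 2.10-fold, with a 95% interval from 0.33 to 1.81.

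Vegfb, also a ligand of Flt1, went the other way. It stood at 25.4 and 24.4 RPKM in WT and at 20.5 and 19.7 RPKM in Mut. Both groups were tight and did not overlap, although the difference was the smallest of the 8 genes without overlap, at a log2 fold change of -0.35 (SE 0.137), with a 95% interval from -0.68 to -0.02. The ratio of Vegfa to Vegfb within a sample was 0.577 and 0.852 in WT and 1.26 and 1.30 in Mut, so Vegfb was the more abundant of the pair in both WT samples and Vegfa in both Mut samples.

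Vegfc, the ligand of lymphatic vessel growth, did not separate the groups. It stood at 4.45 and 3.21 RPKM in WT and at 3.81 and 3.65 RPKM in Mut, with both Mut values between the WT values. Mut over WT was -0.08 on the log2 scale (SE 0.250), and its 95% interval from -0.68 to 0.52 leaves room for a difference of moderate size in either direction. Without WT replicate 1 it was 0.20.

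Vegfd (listed under its older symbol Figf), the remaining VEGF ligand in these data and the other one with a lymphatic role, was the most abundant ligand of the family in every sample. It stood at 59.0 and 40.0 RPKM in WT and at 29.8 and 31.7 RPKM in Mut, a log2 fold change of -0.74 (SE 0.210) that did not pass edgeR's quasi-likelihood test (adjusted p = 0.174, Benjamini-Hochberg over all genes tested). Vegfd made up 56.4% and 44.7% of the summed RPKM of the 5 ligands in WT and 36.3% and 37.8% in Mut. Vegfa made up 14.0% and 23.2% in WT and 31.5% and 30.6% in Mut. The summed level of the 5 ligands was 105 and 89.6 RPKM in WT and 82.0 and 83.8 RPKM in Mut, so the total was lower in Mut while the share of Vegfa was higher.

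Flt1 (chr5:147561604-147726011, minus strand) is a VEGF receptor that binds Vegfa, Vegfb and Pgf, and it is also made in a soluble form that traps them. It stood at 1.53 and 1.82 RPKM in WT and at 3.77 and 2.88 RPKM in Mut. The groups were well separated, with 202 and 298 reads in WT and 733 and 511 reads in Mut. The log2 fold change was 0.95 (SE 0.205), or 1.93-fold, with a 95% interval from 0.46 to 1.44. Gene-level counts do not tell the soluble from the membrane form. Within each sample there was 9.56 and 11.5 times as much Vegfa as Flt1 in WT and 6.85 and 8.91 times as much in Mut, per length.

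The other VEGF receptors were scarcer than Flt1 in all 4 samples. Kdr, the main signalling receptor for Vegfa, stood at 0.131 and 0.238 RPKM in WT and at 0.390 and 0.570 RPKM in Mut, with a log2 fold change of 1.32 (SE 0.410) and an edgeR adjusted p of 0.201. Flt4, the receptor for Vegfc and Vegfd, stood at 0.203 and 0.503 RPKM in WT and at 1.30 and 1.62 RPKM in Mut, with a log2 fold change of 1.99 (SE 0.401) and an edgeR adjusted p of 0.0997. Both were higher in both Mut samples, and neither passed the test. The summed level of the 3 receptors was 1.86 and 2.56 RPKM in WT and 5.46 and 5.07 RPKM in Mut, and Flt1 made up 82.1% and 71.0% of it in WT and 69.0% and 56.8% in Mut.

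The neuropilins Nrp1 and Nrp2, which bind VEGF ligands and class 3 semaphorins, differed in opposite directions. Nrp1 (chr8:128358604-128503363, plus strand) stood at 23.5 and 28.0 RPKM in WT and at 39.95 and 38.5 RPKM in Mut. Mut over WT was 0.57 on the log2 scale (SE 0.132), with a 95% interval from 0.25 to 0.88. Nrp2 (chr1:62703285-62818695, plus strand), which pairs mainly with the lymphatic VEGF ligands and receptor, was the opposite case.

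The Nrp2 level was 60.1 and 47.1 RPKM in WT and 36.3 and 32.8 RPKM in Mut, with a log2 fold change of -0.68 (SE 0.172) and a 95% interval from -1.09 to -0.27. Neither gene had overlapping groups. The summed level of both was 83.6 and 75.1 RPKM in WT and 76.2 and 71.2 RPKM in Mut, and these sums overlapped between the groups. Nrp1 made up 28.1% and 37.3% of the sum in WT and 52.4% and 54.0% in Mut, so Nrp2 was the more abundant neuropilin in both WT samples and Nrp1 in both Mut samples. Both genes had high counts, from 2923 to 7332 for Nrp1 and from 6238 to 8508 for Nrp2.

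**Figure D2:**
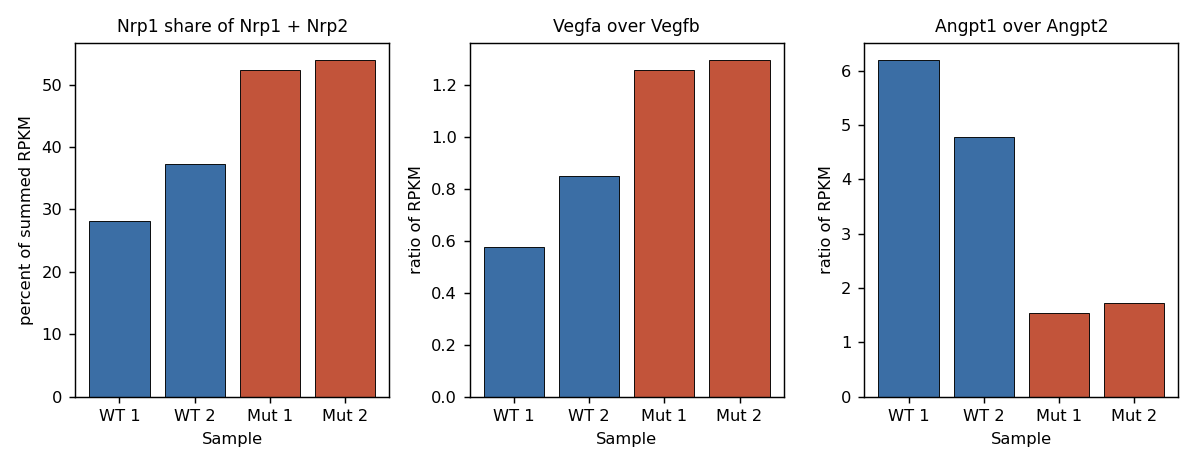
Bars give, for each sample (x axis), the percent of summed neuropilin RPKM that is Nrp1 (left), the ratio of Vegfa to Vegfb RPKM (middle) and the ratio of Angpt1 to Angpt2 RPKM (right), with WT in blue and Mut in red. The Nrp1 share and the Vegfa to Vegfb ratio are higher in both Mut samples, and the Angpt1 to Angpt2 ratio is lower, at 1.55 and 1.73 in Mut against 6.20 and 4.77 in WT.

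Angpt1 (chr15:42424723-42676977, minus strand), the ligand that activates the TIE receptor Tek, had the largest decrease of the 10 genes. It stood at 7.13 and 4.82 RPKM in WT and at 2.38 and 2.47 RPKM in Mut, from 611, 514, 301 and 285 reads. The Mut samples were close together and both lay below the lower WT sample. The log2 fold change was -1.35 (SE 0.234), with a 95% interval from -1.91 to -0.79, so the level was 2.54-fold higher in WT. The annotation places an antisense gene, Gm17473, over 14.2% of the exon bases of Angpt1, and since the library preparation in the labels does not mark strand, reads there cannot be assigned to either gene.

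Angpt2, which can oppose Angpt1 at Tek, stood at 1.15 and 1.01 RPKM in WT and at 1.54 and 1.43 RPKM in Mut (log2 fold change 0.42, SE 0.245, edgeR adjusted p = 0.481). Angpt4, another Tek ligand, stood at 4.11 and 3.48 RPKM in WT and at 1.71 and 1.23 RPKM in Mut (log2 fold change -1.41, SE 0.296, edgeR adjusted p = 0.108). Neither passed the test. Angpt1 exceeded Angpt2 in every sample, by 6.20 and 4.77 times in WT and by 1.55 and 1.73 times in Mut.

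Tek itself was scarce, at 0.470 and 0.288 RPKM in WT and 0.111 and 0.122 RPKM in Mut, with a log2 fold change of -1.74 (SE 0.442) and an edgeR adjusted p of 0.143. Tie1, the other TIE receptor, had between 1 and 4 reads in each sample and was too low to test. The angiopoietin ligands were therefore measured at higher levels per length than their receptors in all 4 samples.

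Edn1 (chr13:42301476-42307990, plus strand), a peptide that constricts vessels, had the largest fold change of the 10 genes and the lowest level. It stood at 0.244 and 0.196 RPKM in WT and at 1.02 and 1.21 RPKM in Mut. There were 12 reads in each WT sample, which allows from 6.20 to 21.0 by an exact 95% Poisson interval. The Mut samples, which were sequenced more deeply, had 74 and 80 reads, with intervals from 58.1 to 92.9 and from 63.4 to 99.6. These intervals cover counting error only, not the spread between samples. The log2 fold change was 2.30 (SE 0.375), or 4.91-fold, with a 95% interval from 1.40 to 3.19. On the scale of log2(RPKM + 1) it was 0.79, because the added 1 exceeds the WT level.

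Edn2 and Edn3, the remaining endothelin ligands, had at most 3 reads in any sample and were not tested. Ednra, a receptor for Edn1, was far more abundant than its ligand, at 15.5 and 9.80 RPKM in WT and at 12.4 and 9.74 RPKM in Mut. The groups of Ednra overlapped, with replicate 1 the higher sample in each genotype and WT replicate 1 the highest of the 4. The log2 fold change was -0.24 (SE 0.258), with a 95% interval from -0.86 to 0.38, and it was 0.16 without WT replicate 1. The level of Ednra exceeded that of Edn1 by 63.8 and 50.03 times in WT and by 12.2 and 8.06 times in Mut.

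Ednrb, the other endothelin receptor, stood at 0.227 and 0.393 RPKM in WT and at 0.323 and 0.574 RPKM in Mut, with overlapping groups and an edgeR adjusted p of 0.666. Ece1, the enzyme that cuts endothelin precursors to the active peptide, stood at 46.4 and 46.3 RPKM in WT and at 68.4 and 86.7 RPKM in Mut. Its log2 fold change was 0.70 (SE 0.147) with an edgeR adjusted p of 0.108.

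**Figure D3:**
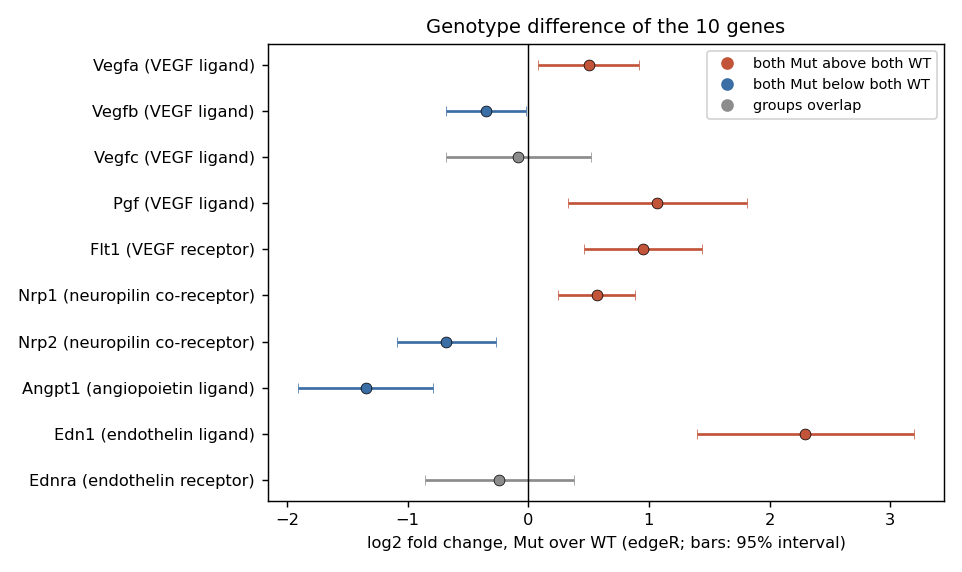
Points give the edgeR log2 fold change of Mut over WT (x axis) for each of the 10 genes (y axis, with the role of each), and bars give its 95% interval, in red where both Mut samples exceed both WT samples, blue where both are below, and grey where the groups overlap. The values run from -1.35 for Angpt1 to 2.30 for Edn1. The bars derive from edgeR's quasi-likelihood statistic, and because the genes were chosen on this contrast, they are descriptive and not read as a test.

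In the order of mean level per length in WT, Nrp2 came first, then Nrp1 and Vegfb, then Vegfa and Ednra, then Angpt1, Vegfc, Flt1, Pgf and Edn1. The WT values of Nrp1 and Vegfb overlapped, as did those of Vegfa and Ednra, so the order within each pair is not resolved. In Mut, Nrp1 led Nrp2, followed by Vegfa, Vegfb and Ednra, and then by Vegfc, Flt1, Pgf and Angpt1, where each gene overlapped the next. Edn1 was last in both genotypes. Averaged over the 4 samples, Nrp2 lay above 90.9% of all listed genes and Nrp1 above 87.5%, while Pgf lay above 41.7% and Edn1 above 33.3%.

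At an adjusted p under 0.05, edgeR's quasi-likelihood fit called 0 of 14123 genes (0%), and its lowest adjusted p was 0.0512. At an unadjusted p under 0.05 it had 1312 genes higher in Mut (9.29%) and 887 lower (6.28%). DESeq2 called 434 genes higher (3.07%) and 263 lower (1.86%), and limma on log2 RPKM called 0. Without WT replicate 2, edgeR called 1331 higher and 1492 lower, and without any 1 of the other samples it called 96 to 525 higher and 47 to 149 lower. No such count is given for the 10 genes described, which were chosen on this contrast. An exact permutation test of 1 gene with 2 samples against 2 cannot give a p below 0.33.

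Beyond the 10 genes, a list of 26 others held the remaining ligands, receptors, converting enzymes, semaphorins, plexins and adaptors of these systems. All 26 were in the data and 23 could be tested. In edgeR's fit 0 of the 23 passed, with a lowest adjusted p of 0.0961. At an unadjusted p under 0.05, 6 were higher and 4 were lower in Mut, beside 9.29% and 6.28% of all genes tested. DESeq2 called 5 higher and 3 lower, beside 3.07% and 1.86% of all genes, while limma called 0. The list was written with earlier results of these data known, so nothing is read from its counts against these shares. The 8 called by DESeq2 include Flt4, Ece1, Vegfd and Angpt4, described above. The median log2 fold change of the 23 was 0.22, and 13 of them were above 0.

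Among the partners of the neuropilins, Sema3a, a class 3 semaphorin that binds Nrp1, had the highest level of the semaphorins averaged over the 4 samples, although in WT its mean of 8.33 RPKM was below the 11.6 RPKM of Sema3f. It stood at 6.46 and 10.2 RPKM in WT and at 16.4 and 15.7 RPKM in Mut (log2 fold change 0.91, SE 0.207, edgeR adjusted p = 0.120). Plxna1, a plexin that signals with neuropilins, stood at 51.9 and 51.8 RPKM in WT and at 60.9 and 62.7 RPKM in Mut (log2 fold change 0.21, SE 0.121, edgeR adjusted p = 0.473). Gipc1, an adaptor that binds the tail of Nrp1, stood at 50.7 and 45.3 RPKM in WT and at 43.2 and 43.1 RPKM in Mut (log2 fold change -0.20, SE 0.136, edgeR adjusted p = 0.553). Only Sema3a of these 3 was called by DESeq2, and none by edgeR.

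DESeq2 also called Sema3e and Plxna4 higher and Plxnd1 lower, which are named here after their values were seen. Sema3e, the ligand of Plxnd1, stood at 2.85 and 2.42 RPKM in WT and at 4.55 and 5.69 RPKM in Mut. Plxnd1, its receptor, stood at 43.0 and 21.5 RPKM in WT and at 16.2 and 15.3 RPKM in Mut. Thus the ligand was higher and its receptor lower in both Mut samples, with WT replicate 1 the highest of all for Plxnd1. Their edgeR adjusted p-values were 0.0961 and 0.184.

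Endothelial cells, which line vessels, also express receptors of these systems. All 12 genes of an endothelial marker list were found, and 10 of them were below 1 RPKM in every sample, with Egfl7 and Erg the highest. The summed level of the list was 8.88 and 7.55 RPKM in WT and 8.05 and 10.7 RPKM in Mut, so the groups overlapped. The defining markers Pecam1 and Cdh5 were at most 0.317 and 0.380 RPKM, and Cldn5 and Robo4 were each at 0 in 1 sample. Flt1, at 1.53 to 3.77 RPKM, was above Pecam1, Cdh5 and Tek in every sample. It was below Egfl7, at 3.83 to 5.68 RPKM, in every sample. Erg was near the level of Flt1, at 1.40 and 1.52 RPKM in WT and at 2.58 and 3.10 RPKM in Mut, and it exceeded Flt1 in Mut replicate 2 only. Of the 12 markers, 2 (Kdr and Erg) were higher and 1 (Tek) was lower in both Mut samples, and Kdr, Tek and Tie1 are themselves genes of these pathways.

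**Figure D4:**
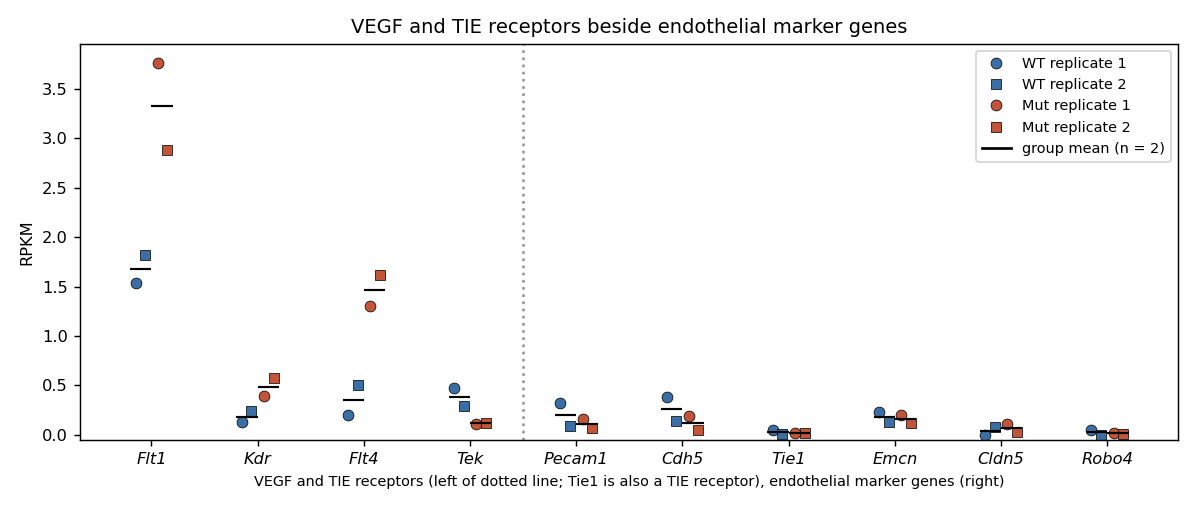
RPKM (y axis, linear) in each sample for the VEGF receptors and Tek (left of the dotted line) and for 6 endothelial marker genes (right), with WT in blue, Mut in red and lines for group means. Flt1, Kdr and Flt4 are higher in both Mut samples than in both WT samples, and Tek is lower. Pecam1, Cdh5, Tie1, Emcn, Cldn5 and Robo4 lie below 0.5 RPKM in all samples. They are a selection from the list of 12 endothelial markers. Not drawn are Egfl7 (3.83 to 5.68 RPKM), Erg (1.40 to 3.10 RPKM), Plvap (0.349 to 0.702 RPKM) and Esam (0.103 to 0.362 RPKM).

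Markers of other cell types are given by the same counts, and edgeR called 0 genes of any marker list. At an unadjusted p under 0.05, edgeR had 9 chondrocyte markers lower (DESeq2 called 8), 3 osteoblast markers lower (2), 1 macrophage and blood marker lower (1), 4 skeletal muscle markers higher (2), 4 pericyte and smooth muscle markers higher (1), 1 fibroblast and perichondrium marker higher (1), 1 epithelial marker higher (0), and 2 endothelial markers higher and 1 lower (0). Only 7 of 12 endothelial, 5 of 7 osteoblast, 4 of 7 macrophage and blood and 2 of 5 epithelial markers could be tested. Over all genes tested, the shares at an unadjusted p under 0.05 by edgeR were 9.29% higher and 6.28% lower. DESeq2 called 3.07% higher and 1.86% lower. For the comparisons of both Mut with both WT samples below, the shares without overlap were 28.3% higher and 19.2% lower. Of 8 pericyte and smooth muscle markers, 5 were higher and 1 lower in both Mut samples, with summed levels of 1087 and 1269 RPKM in WT and 1582 and 1435 RPKM in Mut, led by Acta2 and Pdgfrb. Of 7 skeletal muscle markers, 5 were higher, and the sums were 78.6 and 29.2 RPKM in WT and 134 and 150 RPKM in Mut, led by Acta1 and Des. Of 7 osteoblast markers, 5 were lower, with sums of 186 and 83.2 RPKM in WT and 31.5 and 52.7 RPKM in Mut, led by Alpl and Ibsp. The sums of 7 macrophage and blood markers, led by Lyz2 and Cd68, of which 3 were lower and Hbb-b1 was at 0 in all samples, were 16.7 and 14.6 RPKM in WT and 6.63 and 10.3 RPKM in Mut. The sums of 5 fibroblast and perichondrium markers were 7927 and 5715 RPKM in WT and 5991 and 4543 RPKM in Mut, led by Col1a1 and Thy1, with overlapping sums and with 2 genes higher and 1 lower. Epithelial markers, led by Krt8 and Epcam, summed to at most 3.45 RPKM. Pericytes and perichondrial cells are known sources of Angpt1, and muscle and bone cells make VEGF ligands. The part of these cells in the differences of the 10 genes was not tested.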

How the data were processed

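Poly(A) RNA was sequenced from 2 WT and 2 Mut samples. The submitters' processing notes name mm9 and SAMtools. The aligner and annotation are not given in the sources used here. Per gene, the authors deposited counts of reads, RPKM, and coverage as the percent of the gene covered. A gene missing from a sample was taken as count 0. Genes reaching 10 counts in 2 or more samples were fitted with edgeR 4.0.16 (quasi-likelihood, TMM factors 0.966 to 1.03, R 4.3.3) and adjusted by the Benjamini-Hochberg method at 0.05. Alternatives were DESeq2 1.42.0, limma 3.58.1 on log2(RPKM + 1 or 0.1), other filters and scalings, and leaving out each sample. The code was tested on simulated data. The members and lists were chosen with earlier results of these data known. All 10 members, every gene in their roles, the TIE receptors, the most abundant gene of each other role, and the leading or absent markers were named. Gene positions came from GENCODE M21 (GRCm38) and none were converted from mm9.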

Additional observations from a re-analysis of the deposited data

How the results depend on the processing

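The counts over all genes depended on the method. Against 0 higher and 0 lower genes in Mut by edgeR, DESeq2 gave 434 and 263, edgeR without a filter 225 and 61, and edgeR with a replicate block 84 and 33. Leaving out 1 sample gave 96 to 1331 higher and 47 to 1492 lower genes, with the largest counts without WT replicate 2, and in each such fit the lone sample is assumed to vary like the other group. Of the other pathway genes, 5 higher and 3 lower were called by DESeq2, 2 higher and 0 lower without a filter, and 2 to 7 higher and 0 to 6 lower with 1 sample left out. The cause was not tested. RLE scaling, limma and a filter of 10 counts in every sample called 0 genes. The labels do not say whether equal replicate numbers pair the samples. The correlation of replicate deviations across genes (-0.0422) rests on only 2 pairs and cannot decide it. The block called 0 pathway genes. The median log2 fold change of the genes of a marker list, beside the log2 ratio of its summed levels, was -1.29 against -0.77 for chondrocytes, -0.32 against 0.19 for endothelial cells and 0.076 against -0.37 for fibroblasts and perichondrium, so the last 2 lists differ in sign between the measures. Over 11 alternatives for each of the 10 genes, the sign changed only for Vegfc (0.20) and Ednra (0.16), both without WT replicate 1. The genes without overlap could not change sign when 1 sample was left out, so their kept sign there is not a check. With 1 sample left out, the log2 fold change ran from 2.08 to 2.47 for Edn1, from -1.65 to -1.01 for Angpt1 and from 0.72 to 1.15 for Flt1. On TMM-normalised CPM, an alternative chosen after seeing the data, 5 of the 10 genes were higher and 3 lower without overlap, beside 3583 higher and 3217 lower of all 14123 genes, against 3992 and 2712 on RPKM. Depth limited Edn1 and Pgf most, at 12 and 42 reads in the lowest sample.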

Other observations

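The deposited coverage, the percent of a gene covered by reads, was at least 83.0% in every sample for 9 of the 10 genes. For Edn1, the gene with the fewest reads, the lowest value was 46.5%, in a WT sample, and the highest was 77.2%, in Mut replicate 1.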
